A study of Mus musculus with 2 samples.

Results

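The genes described here are 9 amino acid transporter genes, chosen by name: Slc7a1, Slc7a5, Slc7a6, Slc7a11, Slc3a2, Slc1a4, Slc1a5, Slc38a1 and Slc38a2. All 9 were found among the 18987 genes of the deposited count table, and all 9 passed the filter on low counts, which left 12086 genes. The samples were RAW264.7 cells, a mouse macrophage-like line that turns into osteoclasts under RANKL, a TNF family cytokine. One library was made from cells carrying an shRNA against Cpeb4, which encodes an RNA-binding protein that regulates mRNAs through elements in their 3′ untranslated regions, and the other from cells with a control shRNA. RANKL was added to both at 100 ng/ml, 24 h after plating at 7500 cells per cm2, and the title of the series places collection at day 3. With 1 library per group, each difference below is between these libraries, has no replicate check and carries no test.

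Amino acids cross the plasma membrane through carriers that differ in what they move and in whether they exchange or accumulate it. Slc7a5, Slc7a6 and Slc7a11 encode light chains that reach the cell surface bound to a common glycoprotein heavy chain, the product of Slc3a2 (CD98 heavy chain). The Slc7a5 dimer exchanges large neutral amino acids such as leucine, the Slc7a6 dimer exchanges cationic for neutral amino acids, and the Slc7a11 dimer imports cystine in exchange for glutamate. Slc7a1 carries arginine and lysine without a heavy chain. Slc1a4 and Slc1a5 are sodium-dependent exchangers of small neutral amino acids, and Slc1a5 is a main route for glutamine. Slc38a1 and Slc38a2 accumulate glutamine and other neutral amino acids with sodium, and Slc38a2 is known to be induced when amino acids are scarce. Leucine and glutamine uptake feed the growth kinase complex mTORC1, which has known roles in osteoclast formation.

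Sequences that bear on the regulation of these genes are shown before the values. ATF4, a transcription factor induced when amino acids run short, binds CARE elements, searched here as TGATGNAA on both strands. Promoter windows from RefSeq (build GRCm38.p6), covering 250 bases before to 50 bases after a start, were matched for 6 of the 9 genes, and not for Slc7a5, Slc1a5 and Slc38a1. Slc7a11 and Slc1a4 held the element. The windows are chr3:50443564-50443863 (minus strand) and chr11:20332664-20332963 (minus strand), with the elements in capitals.
Slc7a11: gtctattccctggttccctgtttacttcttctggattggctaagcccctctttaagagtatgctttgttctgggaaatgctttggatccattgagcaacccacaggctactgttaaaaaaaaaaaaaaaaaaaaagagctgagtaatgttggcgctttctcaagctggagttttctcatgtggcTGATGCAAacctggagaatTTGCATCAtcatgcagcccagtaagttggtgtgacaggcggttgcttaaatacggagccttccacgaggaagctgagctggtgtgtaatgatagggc
Slc1a4: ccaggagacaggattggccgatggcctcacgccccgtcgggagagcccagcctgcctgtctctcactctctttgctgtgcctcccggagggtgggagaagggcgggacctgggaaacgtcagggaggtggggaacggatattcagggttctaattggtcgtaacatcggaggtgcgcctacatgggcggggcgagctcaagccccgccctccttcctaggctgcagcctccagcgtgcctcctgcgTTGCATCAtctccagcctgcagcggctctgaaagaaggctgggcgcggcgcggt
The Slc7a11 window held 2 elements, starting 66 and 47 bases before the annotated start, and the Slc1a4 window held 1, starting 4 bases before it. The element was present in 3.97% of 32851 promoter windows of the same length. The E-box CACGTG, the site of MYC and its partner MAX, was in none of the 8 windows of the 6 genes (0) and in 7.15% of all windows. The antioxidant element bound by NRF2, searched as TGACNNNGC on both strands, was in windows of Slc38a2, Slc7a1 and Slc7a6 and in 12.4% of all windows. No motif of one kind shared bases with another in the windows of these genes. A match of letters is not evidence of binding, and no match says only that the letters are not in this window.

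CPEB proteins bind cytoplasmic polyadenylation elements, searched here as TTTTAT or TTTTAAT on the RNA strand of the longest annotated 3′ untranslated region of each gene (GENCODE M21, GRCm38). Of the 9 genes 6 held at least 1 element, as did 62.9% of 10465 genes with such a region. The last element of each is given with 10 bases on either side and the element in capitals.
Slc7a5: tctattttggTTTTATcctaacatgt
Slc7a6: caatcctttgTTTTATtaagactgta
Slc7a11: agtttgtaagTTTTATctaaatattt
Slc7a1: attaattctaTTTTATtttaaggcca
Slc38a1: gaaagacttgTTTTATatctataaat
Slc38a2: aacttggataTTTTATgattttactt
These sites lie on the minus strand at chr8:121881392-121881417 for Slc7a5, chr3:50365906-50365931 for Slc7a11, chr5:148327594-148327619 for Slc7a1, chr15:96575652-96575677 for Slc38a1 and chr15:96689763-96689788 for Slc38a2. The Slc7a6 site lies on the plus strand at chr8:106197942-106197967. These last elements started 258 (Slc7a5), 755 (Slc7a6), 984 (Slc7a11), 200 (Slc7a1), 4250 (Slc38a1) and 2387 (Slc38a2) bases before the end of the region. No element of the 9 genes lay within 100 bases before a polyadenylation signal (AATAAA or ATTAAA) near that end. For Slc7a5, Slc1a4 and Slc1a5 no such signal was found there. Slc7a5 had 2 elements in 1890 bases, and the median over 1616 genes with a region within 20% of that length was also 2. Slc7a11 had 17 elements in 7364 bases, where 198 genes of like length had a median of 10 and 13.6% of them held as many. Slc38a1 had 2 in 5293 bases and Slc7a1 4 in 5030 bases, each against a median of 6 for its length. Slc38a2 had 2 in 2735 bases, against a median of 3, and Slc7a6 had 2 in 2068 bases, against a median of 2. Slc1a4, with 2086 bases, had 0, while 84.8% of 1615 genes of like length had at least 1. Slc1a5 and Slc3a2 had 0 in 535 and 841 bases. For comparison, the region of Cpeb4 itself held 17 in 4102 bases, and 0.667% of genes of like length held as many.

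The data were gene counts, 119350322 in total in the Cpeb4 shRNA library and 79399680 in the control shRNA library. Values are given as counts and as CPM, counts per 1000000 after TMM scaling, which corrects for differences in library composition. The targeted gene, Cpeb4, had 13491 counts (104 CPM) in the Cpeb4 shRNA library and 25270 counts (345 CPM) in the control shRNA library, a log2 ratio of -1.73. Osteoclast markers were lower in the Cpeb4 shRNA library (9 of 9 at least 2-fold, summed level 9721 CPM, against 48177 CPM in the control shRNA library), and cycling cell markers were higher (10 of 10 at least 2-fold, 1858 CPM against 94.9 CPM). Of 9 macrophage markers 9 were listed and 7 passed the filter, of which 2 (Lyz2 at 0.998 and Cd14 at 0.35) had a log2 ratio above 0 and 5 below it, with Cd68 at least 2-fold lower (-1.04) and 0 at least 2-fold higher. The summed level of the 9, most of it from Csf1r, was 3117 CPM in the Cpeb4 shRNA library and 4848 CPM in the control shRNA library. Adgre1 (F4/80) and Fcgr1 were listed but did not pass the filter. Of 8 fibroblast and osteoblast markers 3 were listed and of 6 lymphoid markers 2, and none passed the filter. The fibroblast and osteoblast markers summed to 0.827 and 0.369 CPM, and the lymphoid markers to 0.178 and 0.15 CPM, in the Cpeb4 shRNA and control shRNA libraries. In such bulk samples fewer cells of a type and less RNA per cell cannot be told apart. The part of osteoclast content and of cycling cells in the transporter differences was not tested.

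Slc7a5 was the 1 transporter gene of the 9 past 2-fold, where 14.6% of all 12086 genes were at least that much higher and 11.8% at least that much lower. It encodes the leucine carrier LAT1 (ENSMUSG00000040010; mm10 chromosome 8, 121881150 to 121907694, minus strand). Its counts were 13459 (104 CPM) in the Cpeb4 shRNA library and 1148 (15.7 CPM) in the control shRNA library. The log2 ratio, Cpeb4 shRNA over control, was 2.73 (95% counting interval 2.64 to 2.82), a 6.64-fold higher level. Of all 12086 genes, 348 (2.88%) had a ratio as high. Its level stood at percentile 83.1 of all genes in the Cpeb4 shRNA library and at percentile 37.8 in the control shRNA library. The annotated gene Gm20388 overlaps it on the opposite strand and has no row in the table used here.

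Its obligate partner did not show this difference. Slc3a2 (ENSMUSG00000010095; chromosome 19, 8706882 to 8723369, minus strand) had 12469 counts (96.4 CPM) in the Cpeb4 shRNA library and 8792 counts (120 CPM) in the control shRNA library. Its log2 ratio was -0.32 (-0.36 to -0.28), a 1.25-fold lower level. The ratio of Slc7a5 to Slc3a2 within a library does not depend on how libraries are scaled. Per length, 1.03 Slc7a5 transcripts were counted for each Slc3a2 transcript in the Cpeb4 shRNA library (1.002 to 1.053), and 0.124 in the control shRNA library (0.117 to 0.132). The ratio was 8.27-fold higher in the Cpeb4 shRNA library. With the longest transcript as length the same ratios were 0.863 and 0.104 in the Cpeb4 shRNA and control shRNA libraries, an equal fold.

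The other light chains among the 9 genes went apart. Slc7a6, the light chain y+LAT2 (ENSMUSG00000031904; chromosome 8, 106168857 to 106198706, plus strand), had 6939 counts (53.6 CPM) in the Cpeb4 shRNA library and 2435 counts (33.2 CPM) in the control shRNA library. Its log2 ratio was 0.69 (0.62 to 0.76), higher but within 2-fold. Per Slc3a2 transcript its level was 2.01-fold higher, at 0.430 in the Cpeb4 shRNA library and 0.214 in the control shRNA library. Slc7a11, the cystine importer (ENSMUSG00000027737; chromosome 3, 49892526 to 50443614, minus strand), was low in both libraries. The counts were 467 (3.61 CPM) in the Cpeb4 shRNA library and 343 (4.68 CPM) in the control shRNA library, with a log2 ratio of -0.38 (-0.58 to -0.17). Per Slc3a2 transcript it hardly differed, at 0.0095 (0.0086 to 0.0104) in the Cpeb4 shRNA library and 0.0099 (0.0089 to 0.0110) in the control shRNA library. Slc7a11 spans several annotated pseudogenes and an antisense gene, none with a row in the table used here.

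Other light chains complete the set that was listed. Slc7a7 (ENSMUSG00000000958; chromosome 14, 54369442 to 54417780, minus strand) encodes y+LAT1, a carrier of cationic amino acids known from macrophages. It differed in the opposite direction to Slc7a5. The counts were 1311 (10.1 CPM) in the Cpeb4 shRNA library and 6823 (93.2 CPM) in the control shRNA library. The log2 ratio was -3.20 (-3.29 to -3.12), a 9.19-fold lower level, and 144 of all 12086 genes (1.19%) had one as low. Its 3′ end overlaps Oxa1l on the opposite strand, which had 122 CPM in the Cpeb4 shRNA library and 133 CPM in the control shRNA library (-0.12). The strand setting of the counting is unknown here, so the Slc7a7 values are uncertain. Slc7a8, the carrier LAT2, had 810 and 582 counts in the Cpeb4 shRNA and control shRNA libraries, with a log2 ratio of -0.34 (-0.50 to -0.19). Slc7a10 is not analysed here.

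The composition of the light chain transcripts was therefore different between the libraries. Per length, Slc7a5 made up 63.2% of the light chain level in the Cpeb4 shRNA library and 10.2% in the control shRNA library. Slc7a6 made up 26.5% and 17.5% in the same order of libraries. Slc7a7 made up 6.89% in the Cpeb4 shRNA library and 67.7% in the control shRNA library. Its counts are uncertain because of the overlap with Oxa1l, and each share and the sum rest on them. Slc7a8 and Slc7a11 held 2.82% and 0.584% in the Cpeb4 shRNA library, against 3.82% and 0.810% in the control shRNA library. The summed level was 44.4 CPM per kilobase in the Cpeb4 shRNA library and 41.5 CPM per kilobase in the control shRNA library, and with the longest transcript as length the direction turned, at 50.2 and 56.7 CPM per kilobase in the same libraries. The sum was 1.62 times the Slc3a2 level in the Cpeb4 shRNA library and 1.22 times in the control shRNA library, or 1.47 and 1.33 times with the longest transcript.

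**Figure D1:**
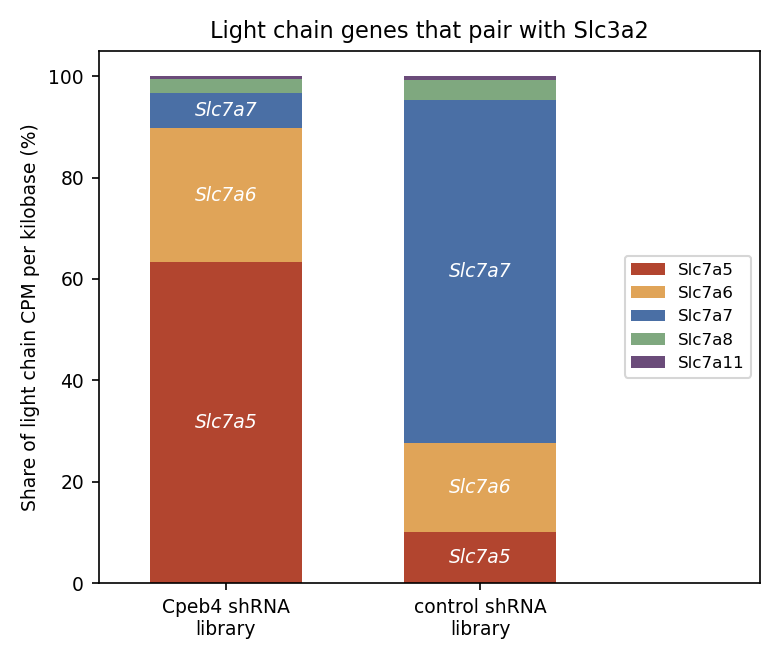
Shares of summed light chain level, in percent of CPM per kilobase of annotated exons, held by each of 5 genes whose products pair with the Slc3a2 heavy chain, in the Cpeb4 shRNA library (left) and the control shRNA library (right). Slc7a5 holds 63.2% in the Cpeb4 shRNA library and Slc7a7 holds 67.7% in the control shRNA library. Slc7a7 overlaps Oxa1l, so its counts, and with them each share, are uncertain.

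The heavy chain-independent cationic carrier was nearly level. Slc7a1, which encodes the arginine and lysine carrier CAT1 (ENSMUSG00000041313; chromosome 5, 148327410 to 148399904, minus strand), had 34281 counts (264.9 CPM) in the Cpeb4 shRNA library and 17235 counts (235 CPM) in the control shRNA library. Its log2 ratio was 0.17 (0.14 to 0.20). It was among the abundant genes in both libraries, at percentiles 94.7 and 93.0 of all genes.

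With TMM scaling the SLC1 exchangers differed in opposite directions, both by less than 2-fold, which total-count scaling did not keep. Slc1a5, the glutamine carrier ASCT2 (ENSMUSG00000001918; chromosome 7, 16781340 to 16798274, plus strand), had 68922 counts (533 CPM) in the Cpeb4 shRNA library and 46254 counts (632 CPM) in the control shRNA library. The log2 ratio was -0.25 (-0.26 to -0.23), and -0.01 with total-count scaling. Slc1a4, the alanine, serine and cysteine carrier ASCT1 (ENSMUSG00000020142; chromosome 11, 20302180 to 20332713, minus strand), had 1054 counts (8.15 CPM) in the Cpeb4 shRNA library and 341 counts (4.66 CPM) in the control shRNA library. Its log2 ratio was 0.81 (0.63 to 0.99), and 1.04 with total-count scaling, which takes it past 2-fold. Slc1a4 remained a small part beside Slc1a5, at 0.0163 per Slc1a5 transcript in the Cpeb4 shRNA library and 0.0078 in the control shRNA library. With the longest transcript as length these were 0.0109 and 0.0053 in the same libraries.

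Both sodium-coupled glutamine accumulators were higher within 2-fold. Slc38a2, SNAT2 (ENSMUSG00000022462; chromosome 15, 96687392 to 96699730, minus strand), had 65950 counts (510 CPM) in the Cpeb4 shRNA library and 24149 counts (330 CPM) in the control shRNA library, with a log2 ratio of 0.63 (0.61 to 0.65). Its chromosomal neighbour Slc38a1, SNAT1 (ENSMUSG00000023169; chromosome 15, 96571418 to 96642913, minus strand), had 31981 counts (247 CPM) in the Cpeb4 shRNA library and 15386 counts (210 CPM) in the control shRNA library, with a log2 ratio of 0.23 (0.21 to 0.26). Per length, 4.02 Slc38a2 transcripts were counted for each Slc38a1 transcript in the Cpeb4 shRNA library and 3.06 in the control shRNA library, a ratio 1.31-fold higher. With the longest transcript as length the ratios were 2.45 and 1.86 in the same libraries, an equal fold, so their size rests on the length used.

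Over the 9 genes, 1 was at least 2-fold higher and 0 were at least 2-fold lower. Against the shares of 14.6% and 11.8% among all genes, neither count of the transporter genes stands far from the background. The median log2 ratio of the 9 genes was 0.23, and that of all genes was 0.05, with quartiles of -0.51 and 0.62. Slc7a5, Slc1a4, Slc7a6 and Slc38a2 lay above the upper quartile, and the other 5 genes lay between the quartiles. Total-count scaling gave 71.0% higher among all genes past 2-fold, where TMM scaling gave 55.4%. None of the 9 genes changed sign under 4 other scalings or an added 1 CPM (0 of 45 values). Most of these values could not change sign. An added 1 CPM keeps the sign, and the scalings other than total-count shift every ratio by only -0.036 to 0.031. The smallest ratio was 0.17, that of Slc7a1. Total-count scaling, which adds 0.23, left Slc1a5 at -0.01, so its direction is not settled. The 20 reference genes, which had a median of -0.03, ranged from -1.96 to 1.93 with quartiles of -0.58 and 0.77. Of the 9 genes Slc7a5 and Slc1a4 lay outside those quartiles, so the smaller differences are no larger than those seen among reference genes. Before any scaling, the 9 genes together took 0.197% of counts in the Cpeb4 shRNA library (95% Clopper-Pearson interval 0.197% to 0.198%). In the control shRNA library they took 0.146% (0.145% to 0.147%). After TMM scaling their summed levels lay nearer to each other, at 1820 CPM in the Cpeb4 shRNA library and 1585 CPM in the control shRNA library.

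**Figure D2:**
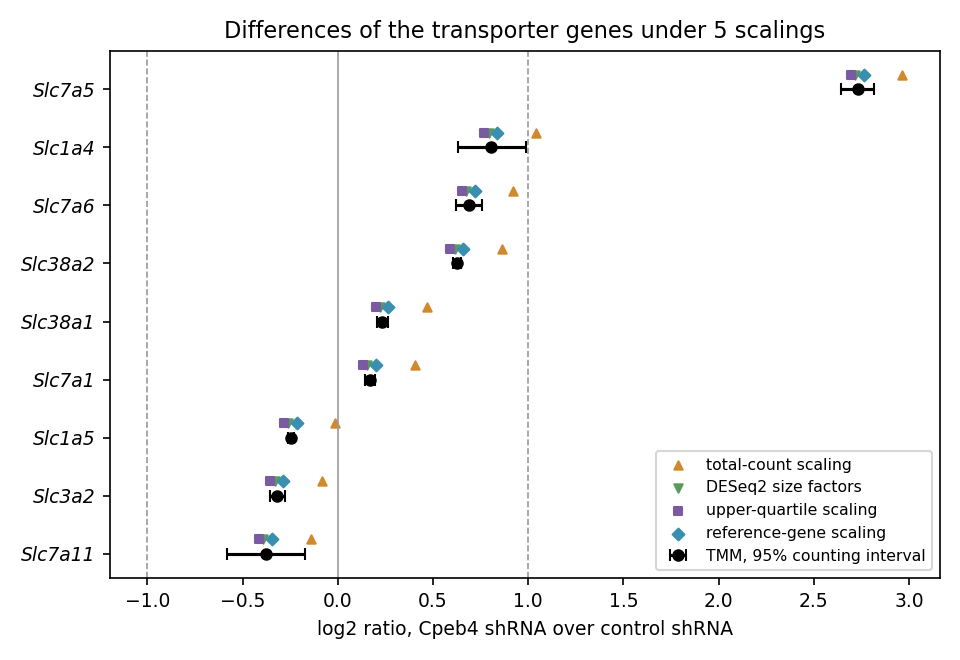
Log2 ratios of Cpeb4 shRNA over control shRNA for the 9 transporter genes (black circles, TMM scaling, bars are 95% counting intervals), with the values under 4 other scalings as coloured symbols just above. Dashed lines mark 2-fold. Slc7a5, at 2.73, lies past 2-fold under each scaling, and Slc1a4 reaches 1.04 with total-count scaling.

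Levels per kilobase of annotated exons put the 9 genes in nearly the same order in both libraries, apart from Slc7a5. Slc1a5 was the highest of the 9 in both libraries, at 128 CPM per kilobase in the Cpeb4 shRNA library and 151 CPM per kilobase in the control shRNA library. Slc38a2 followed in both, at 57.7 and 37.3 CPM per kilobase. Slc7a5 ranked 3 in the Cpeb4 shRNA library, at 28.1 CPM per kilobase, and 7 in the control shRNA library, at 4.23 CPM per kilobase. Slc3a2 stood beside it in the Cpeb4 shRNA library, at 27.3 CPM per kilobase, and had 34.0 CPM per kilobase in the control shRNA library. With the longest transcript as length, Slc7a5 ranked 6 in the Cpeb4 shRNA library and 7 in the control shRNA library, a move of a single place like those of Slc7a6, Slc7a1 and Slc3a2, so its larger move in rank rests on the length used. Slc7a1 had 23.0 and 20.4, Slc38a1 14.3 and 12.2, and Slc7a6 11.7 and 7.28 CPM per kilobase in the Cpeb4 shRNA and control shRNA libraries. Slc1a4, at 2.07 and 1.19, and Slc7a11, at 0.259 and 0.336 CPM per kilobase, were the lowest in both. Spread over samples could not be given, so no order among near neighbours is settled.

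**Figure D3:**
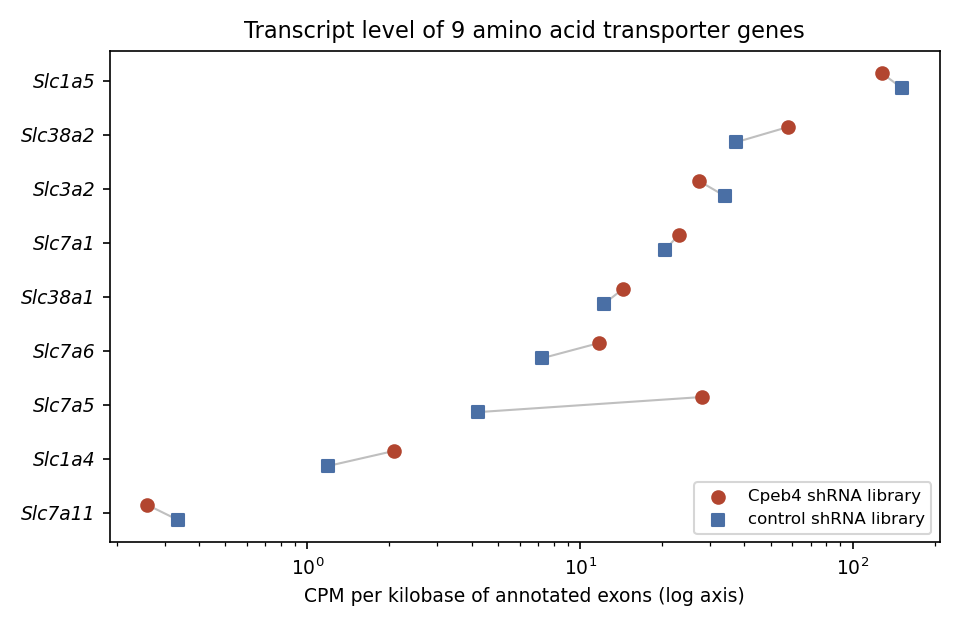
Levels of the 9 transporter genes in CPM per kilobase of annotated exons, on a log axis, in the Cpeb4 shRNA library (red circles) and the control shRNA library (blue squares). Slc7a5 moves the farthest, with 28.1 in the Cpeb4 shRNA library and 4.23 in the control shRNA library, while Slc1a5 is highest in both.

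Of 38 genes taken as other plasma membrane transporters of amino acids, 14 were listed and 9 passed the filter. Where each product sits in the cell was not checked, and some, such as that of Slc38a10, may act inside the cell. Among these 9 genes 0 were at least 2-fold higher and 2 lower (14.6% and 11.8% among all genes), with a median log2 ratio of -0.34, and -0.11 with total-count scaling. The lowest were Slc7a7, Slc38a6 (-1.79; 94.2 CPM in the Cpeb4 shRNA library and 325 CPM in the control shRNA library) and Slc38a10 (-0.83). The highest were the glycine transporter gene Slc6a9 (0.30), the neutral amino acid transporter gene Slc43a2 (0.09) and the taurine transporter gene Slc6a6 (0.08). Slc6a6 had 728 CPM in the Cpeb4 shRNA library and 689 CPM in the control shRNA library. Slc7a7, Slc6a9, Slc43a2, Slc6a6 and Slc38a10 overlap other listed genes and are uncertain.

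Transcripts of lysosomal amino acid transporters were mostly lower after Cpeb4 shRNA. All 8 genes past the filter, of 9 listed, had a log2 ratio below 0 (Slc38a9 lay at 0.12 with total-count scaling). Of them 5 were at least 2-fold lower (11.8% of all genes were) and 0 higher, and the median was -1.14. Total-count scaling left 2 past 2-fold, and 1027 of all genes were then at least 2-fold lower, against 1421 with TMM scaling. Slc36a1, which exports small neutral amino acids from lysosomes, had 20.9 CPM in the Cpeb4 shRNA library and 57.7 CPM in the control shRNA library (-1.47). The cystine exporter gene Ctns had 21.9 and 58.6 CPM in the same libraries (-1.42), and Pqlc2, the exporter of cationic amino acids, 4.02 and 9.39 CPM (-1.22). The smallest differences were those of Slc38a9, the arginine-sensing transporter upstream of mTORC1 (-0.11), Slc15a4 (-0.49) and Slc38a7 (-0.62). Mfsd12 (-1.17) made up most of the summed level, at 344 CPM in the Cpeb4 shRNA library and 776 CPM in the control shRNA library. Slc38a9 and Mfsd12 overlap other listed genes and are uncertain.

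Past the filter were 35 genes of amino acid sensing upstream of mTORC1 or of mTORC1 itself. Of these, 1 lay past 2-fold on the higher side and 3 on the lower (14.6% and 11.8% among all genes). Their median was -0.12, and total-count scaling placed it at 0.12. The lowest was the leucine sensor gene Sesn2, with 17.6 CPM in the Cpeb4 shRNA library and 52.0 CPM in the control shRNA library (-1.56), and Castor2 (-1.40) and the arginine sensor gene Castor1 (-1.01) followed. Other sensor genes of the list did not follow them, with Sesn1 at 0.01, Bmt2 at 0.21 and Lars at 0.51. The Rag GTPase gene Rragb was highest (2.97, from 817 counts in the Cpeb4 shRNA library and 59 counts in the control shRNA library), before the GATOR subunit genes Seh1l (0.75) and Depdc5 (0.53). Sesn2, Sesn1, Lars, Seh1l and Depdc5 overlap other listed genes and are uncertain.

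Past the filter were 32 genes that encode enzymes of amino acid, polyamine and glutathione metabolism. Of these, 2 were higher past 2-fold and 3 lower (14.6% and 11.8% among all genes), and the median was 0.08. Total-count scaling gave 5 higher, 1 lower and a median of 0.31. Of all genes, 2510 were then higher and 1027 lower, against 1765 and 1421 with TMM scaling. A filter at 10 CPM gave 0 higher, 3 lower and a median of -0.0025, with 1025 and 907 of all genes higher and lower. The proline dehydrogenase gene Prodh (2.28, from 756 counts in the Cpeb4 shRNA library and 88 counts in the control shRNA library) and Cth, which makes cysteine by transsulfuration (1.47, from 450 and 92 counts), were highest, before the spermine synthase gene Sms (0.86). Chac1, which degrades glutathione (-1.65), the glutathione synthetase gene Gss (-1.14) and the polyamine acetyltransferase gene Sat1 (-1.07) were lowest. Prodh and Gss overlap other listed genes and are uncertain.

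Of 13 genes that encode regulators of these transporters, 2 were at least 2-fold higher, 1 was lower and 10 were within 2-fold (14.6% higher and 11.8% lower among all genes). Myc, a transcription factor known to activate Slc7a5 and Slc1a5, had 147 CPM in the Cpeb4 shRNA library and 20.2 CPM in the control shRNA library (2.86, 2.78 to 2.94). Mycn was also higher (1.24; 324 CPM and 137 CPM in the same libraries). Atf4, which activates many of the transporter genes in the amino acid response, had 238 CPM in the Cpeb4 shRNA library and 316 CPM in the control shRNA library (-0.41). The ER stress kinase gene Eif2ak3 was lower (-1.82), and Eif2ak4, the kinase that senses uncharged tRNA, was at -0.19. Nfe2l2, which encodes NRF2, was at 0.02 and its partner in degradation Keap1 at 0.23. The other values were 0.38 for Gcn1, 0.29 for Bach1, 0.22 for Max, -0.20 for Nedd4l, -0.23 for Impact and -0.96 for Cd44. Eif2ak3, Keap1, Gcn1, Max and Impact overlap other listed genes and are uncertain. The part of Myc in the Slc7a5 difference was not tested.

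**Figure D4:**
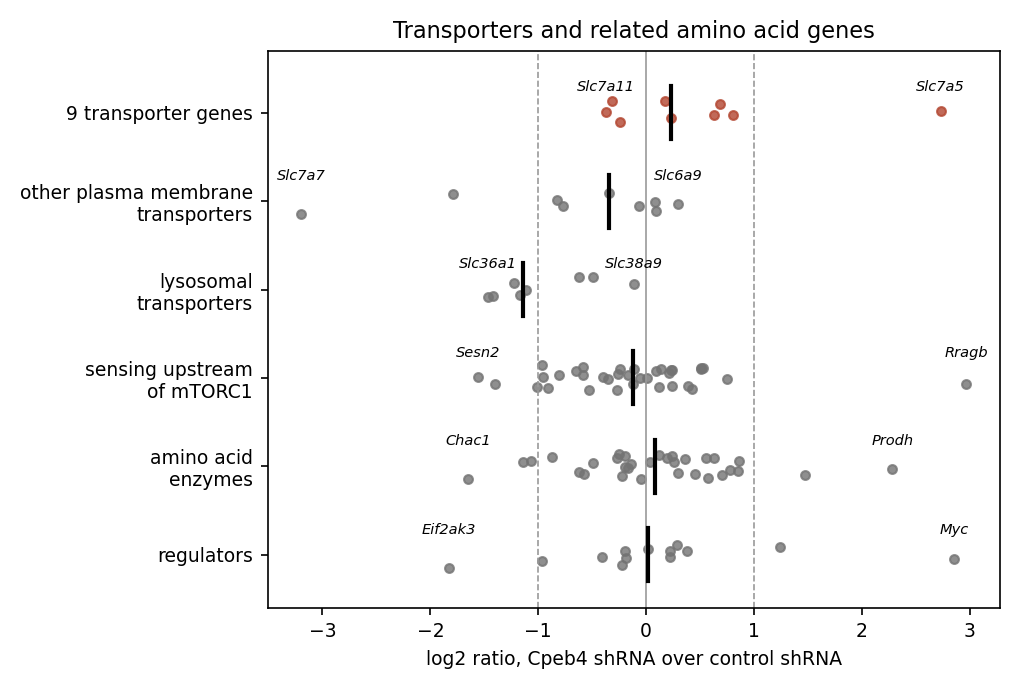
Log2 ratios of Cpeb4 shRNA over control shRNA for the 9 transporter genes (red) and 5 related gene lists (grey), 1 point per gene past the filter, with small vertical offsets for visibility. Black bars are medians, dashed lines mark 2-fold, and the highest and lowest gene of each list are named. The lysosomal transporters have a median of -1.14, and all 8 lie below 0 with the TMM scaling plotted (Slc38a9 at 0.12 with total-count scaling).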

How the data were processed

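RNA sequencing was done on 2 libraries of RANKL-treated RAW264.7 cells. Reads were aligned with HISAT2 to mm10, per the submitters' processing notes. For HISAT2 a version, and for counting the tool, its strand setting, its treatment of shared reads and its gene models, are not given in the sources used. The authors deposited whole-number read counts per gene, 1 column per library, and each listed gene has at least 1 count in both. Genes at 4 counts were more frequent than at 3 or 5, so the values may be estimates.

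Counts were scaled with TMM in edgeR 4.0.16 (R 4.3.3), and a mean of 1 CPM or more was required. Ratios are Cpeb4 shRNA over control shRNA, with exact Clopper-Pearson 95% intervals that cover counting error only. PCR copies are not independent molecules. The median interval was 0.16 log2 units wide. Higher and lower mean at least 2-fold. Lengths (union of annotated exons) and coordinates were taken from GENCODE M21, built on GRCm38 (mm10), where 18954 of 18987 identifiers were found. Promoters came from RefSeq. The ratio code was tested on simulated data with counting error only and few changed genes, balanced in direction. Such data cannot show how the scaling behaves when as many genes differ as here.

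The 9 genes and the lists were chosen with earlier results of these data known. Named by rule were the 9 genes, the other light chains, Cpeb4, all regulators, and the 3 highest and 3 lowest genes past the filter of each other list. Outside this rule, Sesn1, Bmt2 and Lars were named as other sensor genes, Oxa1l, Gm20388 and Mfsd12 for overlaps, and single macrophage markers. Genes of like pattern were not sought, since with 2 libraries a pattern is 1 ratio. Alternatives were 4 scalings (DESeq2 1.42.0 size factors among them), a pseudocount of 1 CPM, other filters and size rules, and the longest transcript as length.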

Additional observations from a re-analysis of the deposited data

How the results depend on the processing

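No paired analysis was possible because there was a single library for either shRNA. Total-count scaling adds 0.23 to every log2 ratio; upper-quartile and reference-gene scaling shift it by -0.036 and 0.031, and DESeq2 size factors by -0.015. The log2 ratio of Cpeb4 was -1.49, -1.76 and -1.70 under the first 3 of these, and the median of the 9 transporter genes was 0.47, 0.20 and 0.27. Their count at least 2-fold higher was 2 with total-count scaling and 4 at 1.5-fold, where 2510 and 3191 of all genes were higher. With total-count scaling, list medians were -0.11 (other plasma membrane transporters), -0.91 (lysosomal), 0.12 (sensing) and 0.31 (enzymes). Of the lists, 2 lysosomal genes were then lower, and 5 enzymes higher and 1 lower, where 1027 of all genes were lower. The enzyme median was 0.045 with upper-quartile and 0.11 with reference-gene scaling. A pseudocount of 1 CPM gave a lysosomal median of -0.94 and 1 enzyme higher, with 1441 of all genes higher. Without a filter, 4 other plasma membrane transporters were lower (median -0.69), 2 sensing genes and 6 enzymes higher (enzyme median 0.19), and 3217 and 2930 of all genes higher and lower. At a mean of 10 CPM these were 1025 and 907, with 3 lysosomal genes lower (median -0.90), 0 sensing genes and 0 enzymes higher, and an enzyme median of -0.0025. At 1.5-fold, 4 other plasma membrane transporters were lower, 2 sensing genes higher and 10 lower, 7 enzymes higher and 5 lower, and 3191 and 2674 of all genes higher and lower. Filters and size rules set these changes by construction.

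With the longest transcript as length, the light chain shares in the Cpeb4 shRNA library were 58.9% for Slc7a5, 28.5% for Slc7a6, 8.85% for Slc7a7, 3.05% for Slc7a8 and 0.779% for Slc7a11. In the control shRNA library they were 7.86%, 15.6%, 72.2% and 3.43% for the first 4 genes in that order. In the Cpeb4 shRNA library Slc7a1 then ranked 3, Slc38a1 ranked 5 and Slc7a5 ranked 6 among the 9 genes. The low counts of Slc7a11 and Slc1a4 limit those ratios most, and differences between cultures could not be measured.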
